A study of Mus musculus with 2 samples.

Results

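The ligands of the epidermal growth factor (EGF) family Hbegf, Areg, Ereg, Nrg1 and Tgfa were followed in leukocytes from tumours grown from MC38, a cell line of mouse colon carcinoma. They are 5 of the 33696 mouse gene features, found by symbol. Nrg1 is listed under 2 gene identifiers, and all 8301 of its transcript counts (unique molecular identifiers, UMIs) belong to 1 of them. The members were chosen by values of these same data: Hbegf had been seen to be higher in monocytes of GA-aFuc mice than of the Untreated mouse, and the Areg values had also been seen. The Hbegf values in monocytes are therefore a description, with no test, in every comparison that uses the GA-aFuc mice.

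The mice carry human Fcγ receptors in every group; these receptors of leukocytes recognise the Fc, the stem of an IgG molecule. MC38 tumours grew under the skin, and mice received by intraperitoneal injection 100 µg of anti-GITR carrying a human IgG1 constant region, 2 times 3 days apart, or PBS. CD45+ cells, CD45 being a surface marker of leukocytes, were sorted 4 days post treatment and sequenced with a droplet-based 3′ assay. The authors annotate GA-aFuc as an agonist with enhanced Fc, N297A as an agonist with a null Fc, and GITR/Syn GA-aFuc as a non-agonist with enhanced Fc. The PBS group is annotated as Untreated. The library analysed holds 2 GA-aFuc mice (replicates 2 and 3), 2 GITR/Syn GA-aFuc mice (replicates 2 and 3), 1 N297A mouse (replicate 3) and 1 Untreated mouse (replicate 3). The labels give neither the age nor the sex of the mice, nor how the human receptor genes are driven. Xist, which is transcribed from the inactive X chromosome, stood at 448 to 591 CPM in macrophages and monocytes of GA-aFuc replicate 2 and GITR/Syn GA-aFuc replicate 2, and at 2.37 CPM or less in the other 4 mice, all of them replicate 3.

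The authors' annotation covers 10476 cells of this library in 10 cell types, with 1540 to 1925 cells and 1.72e+07 to 2.58e+07 UMIs per mouse. All markers listed for each of the 10 types were detected in the cells of that type. Levels are given as CPM, UMIs of a gene per 1e6 mapped UMIs of the cells, with 95% Poisson intervals that cover counting error only. Barcodes with under 100 UMIs served as a measure of free RNA, and a level at or below theirs is not read as expression. GA-aFuc replicate 3 stood apart from the other mice. Its Arg1 level, for arginase 1, was 1415 CPM in macrophages and 2264 CPM in monocytes, against 364 and 1189 CPM in GA-aFuc replicate 2 and at most 119 and 294 CPM in the other 4 mice. S100a8, a neutrophil gene, stood at 132 CPM in its monocytes and at 9.03 CPM or less in monocytes of the others. Values with and without this mouse are therefore given below.

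EGF family ligands are made as membrane-anchored precursors that proteases of the ADAM family cut to release the active growth factor. Hbegf (heparin-binding EGF-like growth factor), Areg (amphiregulin), Ereg (epiregulin) and Tgfa (transforming growth factor alpha) bind the EGF receptor Egfr, and Hbegf and Ereg also bind Erbb4. Nrg1 (neuregulin 1) binds Erbb3 and Erbb4, which signal with the shared partner Erbb2. In tissues with barriers, macrophages, regulatory T cells and innate lymphoid cells are known sources of such ligands in repair, acting on epithelial and stromal cells.

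The ligands were found in different leukocytes. Nrg1 was mainly a monocyte transcript, with 76.1% of its UMIs in monocytes and 21.0% in macrophages. Hbegf UMIs lay to 60.4% in macrophages and to 34.4% in monocytes, but without GA-aFuc replicate 3 the order turned, with 35.9% (185 of 515 UMIs) in macrophages and 55.1% (284 UMIs) in monocytes. Tgfa UMIs lay to 74.1% in NK cells and to 19.0% in CD8 T cells. Areg UMIs were spread over several types: monocytes held 32.4% of them, macrophages 17.8%, regulatory T cells (Tregs) 14.9% and CD8 T cells 13.9%. Such shares also rise with the UMIs that a type holds in all. As a level, pooled Areg was highest in the 24 Tregs at 565 CPM, against 6.28 CPM over all annotated cells. It was 21.0 CPM in CD8 T cells and 1.74 CPM in macrophages, with monocytes in between. Pooled Hbegf was 19.1 CPM in monocytes and 11.8 CPM in macrophages, against 12.6 CPM over all annotated cells. Ereg was counted 3 times in all annotated cells, each time in a macrophage. The free RNA held Hbegf at 10.96 CPM, Areg at 3.52 CPM, Nrg1 at 31.3 CPM and Tgfa at 0.135 CPM, and no Ereg UMI. The pooled Areg level of macrophages lies below that of the free RNA and is not read as expression.

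**Figure D1:**
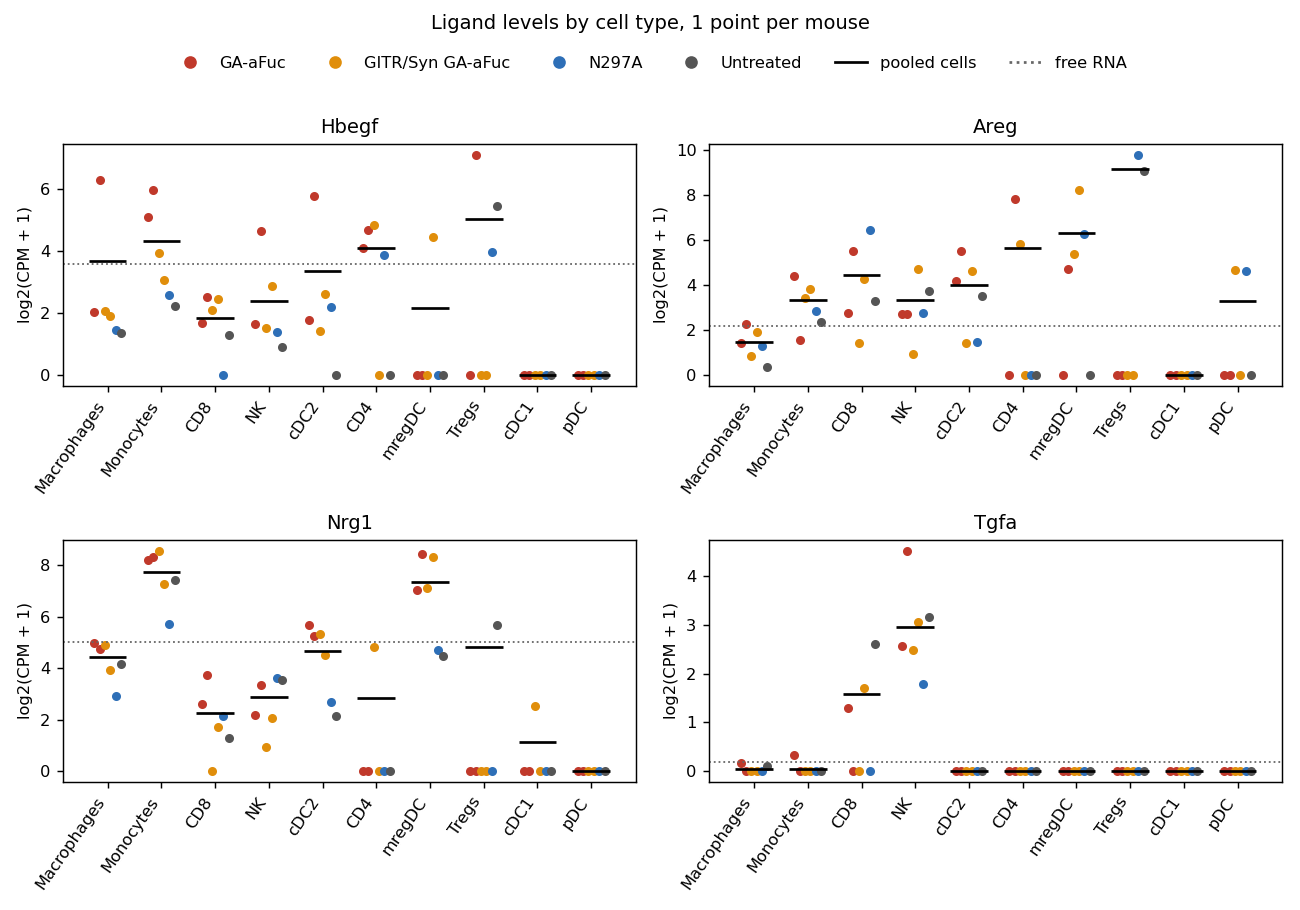
Levels of Hbegf, Areg, Nrg1 and Tgfa as log2(CPM + 1) in the 10 annotated cell types. Each point is 1 mouse, coloured by treatment, the black line is the level in the pooled cells of all 6 mice and the dotted line is the level of free RNA. Nrg1 stands highest in monocytes and mregDC, Areg in Tregs, and Tgfa above the free RNA mainly in NK and CD8 T cells.

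Nrg1 in monocytes was 295 CPM in GA-aFuc replicate 2, 315 CPM in GA-aFuc replicate 3, 377 CPM in GITR/Syn GA-aFuc replicate 2, 152 CPM in GITR/Syn GA-aFuc replicate 3, 52.2 CPM with N297A and 169 CPM without antibody. All 6 values lay above the free RNA, and the N297A mouse was the lowest. Of the 2 endothelium markers, Pecam1, an adhesion molecule that leukocytes also carry, ran from 39.9 CPM with N297A to 122 CPM in GA-aFuc replicate 2 in these monocytes, and was like Nrg1 lowest with N297A, then in GITR/Syn GA-aFuc replicate 3 (59.7 CPM) and the Untreated mouse (74.1 CPM). Cdh5, the endothelial cadherin, stood at 0.774 to 2.15 CPM, with 1.70 CPM with N297A. For Nrg1 both GA-aFuc mice stood above the Untreated mouse, while the 2 GITR/Syn GA-aFuc mice lay on either side of it. At an equal depth of 3000 UMIs per cell, 32.1% and 26.95% of GA-aFuc monocytes held an Nrg1 UMI, against 32.3% and 19.2% with GITR/Syn GA-aFuc, 9.14% with N297A and 19.8% without antibody. Without thinning the shares over the 6 mice ran from 16.3% to 44.2%.

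Nrg1 in monocytes was 2.49 ± 0.41 (SE) log2 units higher in the GA-aFuc mice (n = 2) than in the N297A mouse (n = 1), with an adjusted p = 0.0188 from edgeR's quasi-likelihood test with Benjamini-Hochberg adjustment. In this comparison 0.579% of 11920 genes passed. Over its alternatives, by edgeR or DESeq2, the highest adjusted p of Nrg1 was 0.0456. The share of all monocyte genes that passed moved as well. It was 1.53% with no filter on low counts, 2.37% with the replicate number as a block and 0.503% with RLE factors. Against the Untreated mouse the estimate was 0.82 ± 0.37 (SE). For GITR/Syn GA-aFuc it was 0.59 ± 0.36 (SE) against Untreated and -0.23 ± 0.29 (SE) against GA-aFuc, with adjusted p = 1 and 0.999 by the same edgeR test. The N297A mouse and the Untreated mouse were not tested against each other, with 1 mouse each.

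Nrg1 was not spread evenly over the monocyte clusters of the authors. Pooled over mice it reached 549 CPM (Poisson 486 to 619) in cluster 54, 543 CPM (521 to 566) in cluster 0 and 481 CPM (445 to 519) in cluster 27, against 118 CPM (108 to 129) in cluster 1. Cluster 0 alone held 26.8% of all Nrg1 UMIs. Within cluster 0 the levels were 546 and 705 CPM with GA-aFuc, 1183 and 224 CPM with GITR/Syn GA-aFuc, 179 CPM with N297A and 355 CPM without antibody. In cluster 27 they were 998 and 687 CPM, 815 and 428 CPM, 60.4 CPM and 214 CPM in the same order. In cluster 54, with 6 to 17 cells per mouse, they were 684 and 828 CPM, 540 and 933 CPM, 101 CPM and 51.6 CPM. The N297A mouse was thus the lowest of the 6 in clusters 0 and 27, as in monocytes as a whole, while in cluster 54 the Untreated mouse, with 2 UMIs, was lower.

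In dendritic cells Nrg1 was higher in all 4 mice given an antibody with enhanced Fc than in the other 2. In the 4 annotated dendritic types together, Nrg1 stood at 46.5 and 67.2 CPM with GA-aFuc and at 47.6 and 47.3 CPM with GITR/Syn GA-aFuc, against 6.45 CPM with N297A and 4.59 CPM without antibody. These rest on 27, 42, 49, 44, 5 and 4 UMIs. Those 4 mice lay above the free RNA, and both other mice lay below it. The edgeR estimates were 3.57 ± 0.52 (SE) for GA-aFuc against Untreated (adjusted p = 0.0686), 3.11 ± 0.50 (SE) for GA-aFuc against N297A (adjusted p = 0.0629) and 3.32 ± 0.52 (SE) for GITR/Syn GA-aFuc against Untreated (adjusted p = 0.176). None of the 3 passed the threshold of 0.05, and by DESeq2 the adjusted p of the first was 0.328 and that of the second 1. The estimates of GA-aFuc passed when any 1 of the 4 mice with enhanced Fc was left out, with adjusted p of at most 0.00107 by edgeR. Those fits called more dendritic genes in general, 56 to 156 against 1 for GA-aFuc against Untreated and 71 to 100 against 2 for GA-aFuc against N297A. GITR/Syn GA-aFuc against GA-aFuc gave -0.25 ± 0.27 (SE), with an adjusted p = 0.898 by edgeR.

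The same 2 mice were the lowest within both dendritic types that hold most of these UMIs. In mregDC, the mature dendritic cells that express Ccr7, Nrg1 stood at 130 and 343 CPM with GA-aFuc, 138 and 320 CPM with GITR/Syn GA-aFuc, 25.2 CPM with N297A and 21.2 CPM without antibody, from 5 to 15 cells each. In cDC2, conventional dendritic cells of type 2, it stood at 50.5 and 36.7 CPM, 39.7 and 22.0 CPM, 5.42 CPM and 3.42 CPM in the same order, from 33 to 52 cells each. The share of mregDC among dendritic cells ran from 10.6% to 18.1%, with the N297A mouse at 13.9% and the Untreated mouse at 12.1%. The 51 dendritic cells with an Nrg1 UMI carried the 7 macrophage markers at a summed 3118 CPM, against 757 CPM in the 347 dendritic cells without one. For mregDC alone these sums were 2808 and 589 CPM, and by mouse they ran from 360 CPM in the Untreated mouse to 4337 CPM in GA-aFuc replicate 3, with GA-aFuc replicate 2 at 367 CPM. By mouse the summed macrophage markers of dendritic cells ran from 958 to 1402 CPM, with 1064 CPM with N297A and 995 CPM without antibody. The part of macrophage RNA in the dendritic Nrg1 values was not tested.

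Macrophages held Nrg1 at a pooled 20.5 CPM, below the free RNA. The values were 30.2 and 25.8 CPM with GA-aFuc, 29.0 and 14.1 CPM with GITR/Syn GA-aFuc, 6.64 CPM with N297A and 16.9 CPM without antibody. The N297A mouse was again the lowest, but all 6 values lie below the free RNA of 31.3 CPM and are not read as expression. GA-aFuc against N297A gave 2.01 ± 0.39 (SE) log2 units with an adjusted p = 0.594 by edgeR. It passed by DESeq2 (adjusted p = 0.00581), without GA-aFuc replicate 2 or replicate 3 and with no filter on low counts, where the adjusted p was 1.81e-09, the lowest of its alternatives; the highest was 0.949. The fits without these mice called 289 and 124 macrophage genes in this comparison, and that with no filter 259, against 0 in the fit of all 6 mice. DESeq2 called 19 of 14340 macrophage genes there, or 0.132%. 98 of 5725 macrophages held at least 5 Nrg1 UMIs, and these cells carried 55.5% of the macrophages' Nrg1. By cluster the pooled level was 51.2 CPM (45.5 to 57.4) in cluster 2 and 35.6 CPM (30.5 to 41.2) in cluster 6. In cluster 2 GA-aFuc replicate 3 was the lowest at 18.4 CPM, with N297A at 30.6 CPM. The N297A mouse was the lowest in cluster 6 at 5.22 CPM and in cluster 30 at 12.5 CPM.

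**Figure D2:**
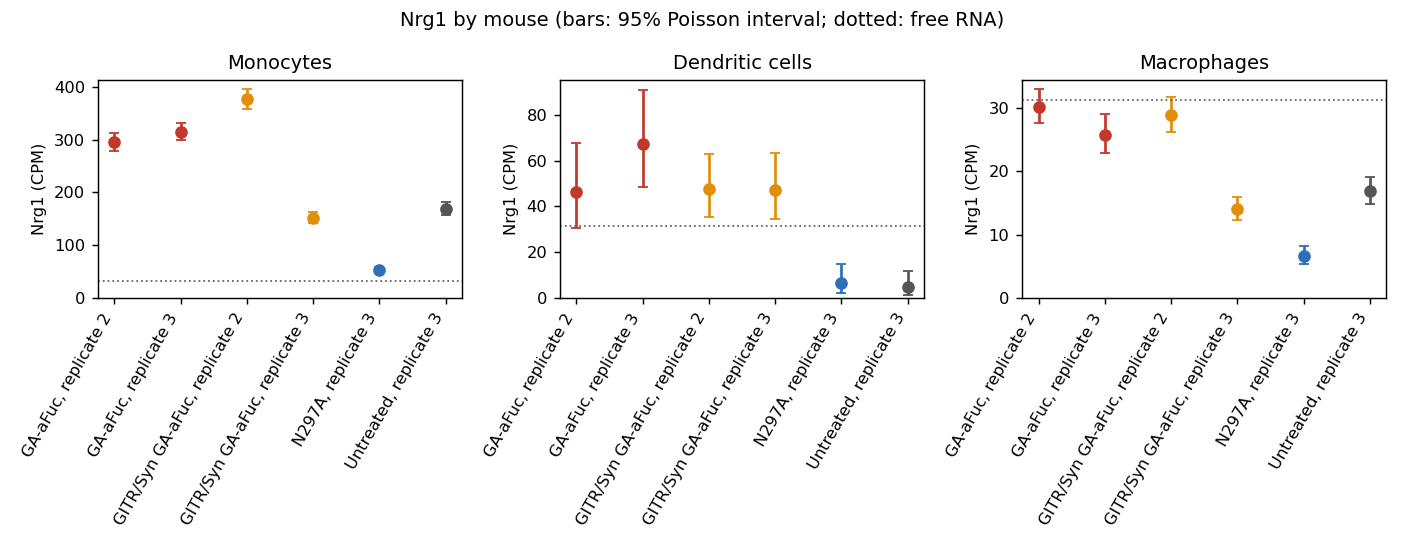
Nrg1 in CPM in monocytes, in dendritic cells and in macrophages, 1 point per mouse with its 95% Poisson interval, coloured by treatment; the dotted line is the level of free RNA at 31.3 CPM. The N297A mouse is the lowest in monocytes at 52.2 CPM and in macrophages at 6.64 CPM, and in dendritic cells the N297A and Untreated mice lie below the other 4.

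Hbegf in monocytes, on which the choice of the genes rests, was 33.3 CPM in GA-aFuc replicate 2 and 61.8 CPM in GA-aFuc replicate 3. It was 14.4 and 7.28 CPM with GITR/Syn GA-aFuc, 4.92 CPM with N297A and 3.71 CPM without antibody. Both GA-aFuc mice and GITR/Syn GA-aFuc replicate 2 lay above the free RNA of 10.96 CPM, and the other 3 mice below it. The edgeR estimates, given with no p, were 3.65 ± 0.49 (SE) log2 units for GA-aFuc against Untreated, 3.22 ± 0.45 (SE) against N297A and -2.18 ± 0.32 (SE) for GITR/Syn GA-aFuc against GA-aFuc. In the first and the third of these comparisons 0.176% and 0.109% of genes passed, and Nrg1 did not. GITR/Syn GA-aFuc against Untreated, which uses the same Untreated mouse, gave 1.47 ± 0.53 (SE) for Hbegf; 0% of genes passed there, with 291 of 11920 at an unadjusted p under 0.05.

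The Hbegf of monocytes was held by few cells. In GA-aFuc replicate 2 the 5 richest of 380 monocytes carried 69 of 129 UMIs, and without them the level was 15.8 CPM. In GA-aFuc replicate 3 the 5 richest of 532 carried 50 of 288 UMIs, and the level without them was 51.7 CPM. At an equal depth of 3000 UMIs, 5.15% and 10.3% of GA-aFuc monocytes held an Hbegf UMI, 2.93% and 1.95% with GITR/Syn GA-aFuc, 1.44% with N297A and 1.25% without antibody. Cluster 0, the cluster with the most Nrg1 UMIs, also led for Hbegf among monocytes. Its Hbegf levels were 119 and 152 CPM with GA-aFuc, 31.8 and 20.8 CPM with GITR/Syn GA-aFuc, 11.6 CPM with N297A and 8.30 CPM without antibody.

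In macrophages Hbegf came mainly from 1 mouse. GA-aFuc replicate 3 held 821 of the 1006 UMIs, at 77.4 CPM (72.2 to 82.8). GA-aFuc replicate 2 stood at 3.09 CPM, the GITR/Syn GA-aFuc mice at 3.17 and 2.70 CPM, the N297A mouse at 1.72 CPM and the Untreated mouse at 1.55 CPM. These 5 values all lie below the free RNA. Apart from GA-aFuc replicate 3, no level over all macrophages of a mouse is thus read as expression. The 2 GA-aFuc mice differed more from each other than GA-aFuc replicate 2 did from any other mouse. The edgeR estimates were 4.62 ± 1.66 (SE) for GA-aFuc against Untreated, and 4.47 ± 1.66 (SE) against N297A with an adjusted p = 0.970. Without GA-aFuc replicate 3 they were 0.92 and 0.78, and without GA-aFuc replicate 2 both passed, at 5.58 and 5.44, in fits that called 381 and 289 macrophage genes. Neither Hbegf nor Nrg1 was called in macrophages in any of the 4 comparisons. There 0% of 14340 genes passed for GA-aFuc against Untreated, 0% against N297A, 0% for GITR/Syn GA-aFuc against Untreated and 0.00697% against GA-aFuc. The genes at an unadjusted p under 0.05 numbered 436, 463, 185 and 362 in that order.

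Most of the macrophage Hbegf of GA-aFuc replicate 3, 715 of 821 UMIs, lay in the authors' clusters 9, 12 and 39, which held 230 of its macrophages at a level of 321 CPM (298 to 345). By cluster this mouse reached 308 CPM in cluster 9, 221 CPM in cluster 12 and 553 CPM in cluster 39. The same 3 clusters together held 15.9 CPM in GA-aFuc replicate 2, 4.27 and 5.70 CPM with GITR/Syn GA-aFuc, 5.05 CPM with N297A and 5.49 CPM without antibody. In cluster 9 all 6 mice had an Hbegf UMI, and GA-aFuc replicate 2 was the next highest at 30.3 CPM, from 12 UMIs. The GITR/Syn GA-aFuc mice stood there at 16.8 and 12.1 CPM, from 3 and 8 UMIs. These values also lie above the free RNA of 10.96 CPM, whose own Poisson interval ran from 8.71 to 13.6 CPM. The value of 12.1 CPM lies within that interval, as do those of N297A at 10.6 CPM and Untreated at 9.91 CPM. The 3 clusters were thus present in every mouse and made up 27.8% of the macrophages of GA-aFuc replicate 3, against 8.28% to 14.9% in the others. In cluster 9 this mouse had 148 cells, against 15 to 62 in the others. In cluster 12 it had 47 against 40 to 51, and in cluster 39 it had 35 against 15 to 31. The 3 clusters were chosen with their Hbegf values in view, so the comparison of mice within them is a description.

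**Figure D3:**
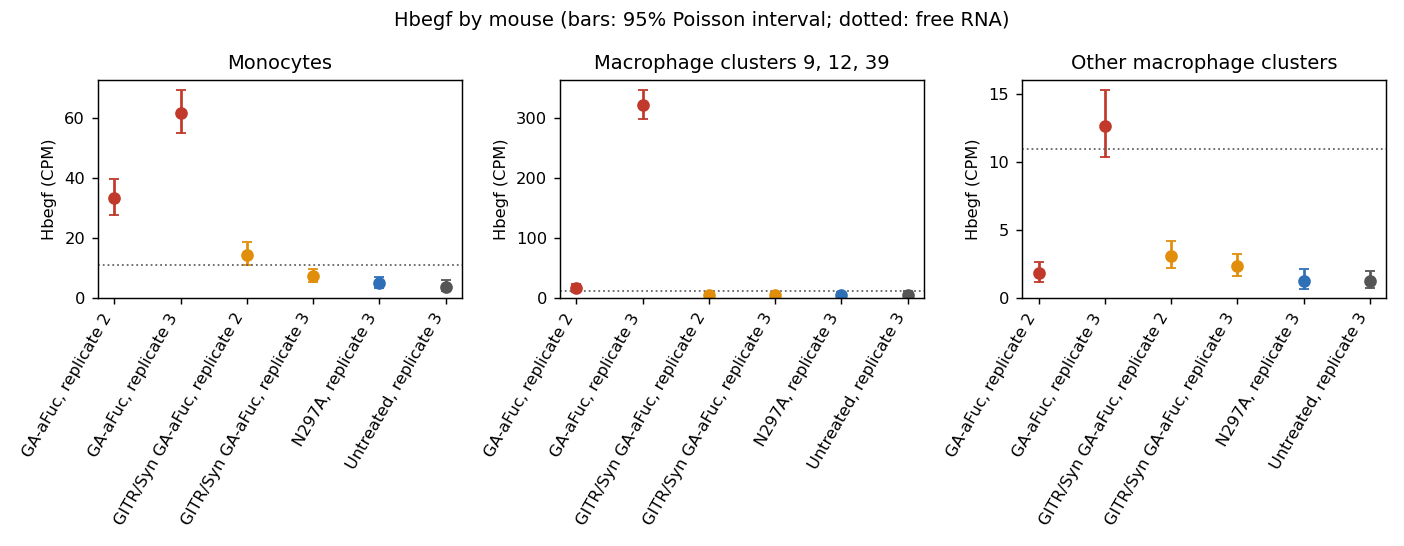
Hbegf in CPM in monocytes, in macrophage clusters 9, 12 and 39, and in the other macrophage clusters, 1 point per mouse with its 95% Poisson interval, coloured by treatment; the dotted line is the level of free RNA at 10.96 CPM. In monocytes both GA-aFuc mice lie above the rest, whereas in macrophages GA-aFuc replicate 3 alone stands out, at 321 CPM in the 3 clusters.

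The cells richest in Hbegf carried some of the monocyte markers even where they were annotated as macrophages. 56 macrophages held at least 5 Hbegf UMIs, 50 of them in GA-aFuc replicate 3; this minimum was set after seeing the data. Their 6 monocyte markers summed to 4917 CPM against 287 CPM in the other 5669 macrophages, and monocytes themselves stood at 5558 CPM. Chil3, which encodes a chitinase-like secreted protein, stood at 3062 CPM in these cells against 32.0 CPM in other macrophages, Fn1 (fibronectin) at 987 against 41.6 CPM and Arg1 at 7230 against 259 CPM. Chil3 thus made up most of the summed 4917 CPM. Monocytes themselves held Chil3 at 359 CPM and Fn1 at 308 CPM, both below the level in these cells. Ly6c2, the surface marker of classical monocytes, stood at 149 CPM against 59.9 CPM in other macrophages and 2168 CPM in monocytes. Plac8 stood at 599 CPM against 91.8 CPM in other macrophages and 2219 CPM in monocytes. Ccr2 stood at 68.5 CPM against 58.7 and 462 CPM, and Vcan at 52.5 CPM against 3.43 and 42.3 CPM, in the same order. The 7 macrophage markers, C1q genes among them, summed to 8880 against 21514 CPM. Of the cells of clusters 9, 12 and 39, those of GA-aFuc replicate 3 had monocyte markers at 3187 CPM, and those of the other 5 mice at 301 CPM. The cells of that mouse in these clusters with no Hbegf UMI still stood at 1547 CPM. The cells were picked by their Hbegf, so the comparison is a description, and the part of monocytes in the macrophage values was not tested.

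In the other classes Hbegf was scarce. Its pooled level was 2.56 CPM in CD8 T cells, 4.24 CPM in NK cells and 9.18 CPM in cDC2, all below the free RNA, and its 7 UMIs in Tregs and 8 in CD4 T cells are too few for a comparison. In cDC2, 22 of the 29 UMIs came from 4 cells of GA-aFuc replicate 3. No UMI was counted in cDC1 or pDC, which allows up to 3.52 and 13.1 CPM.

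Areg was carried by a small number of cells scattered over many types. The 47 cells with at least 5 Areg UMIs, 0.449% of all annotated cells, held 623 of its 830 UMIs. They came from all 6 mice and from 8 of the 10 types, 17 from monocytes, 10 from macrophages, 5 each from CD8 T cells and Tregs, 3 each from cDC2 and mregDC, and 2 each from NK and CD4 T cells. Per mouse there were 10 and 6 with GA-aFuc, 4 and 11 with GITR/Syn GA-aFuc, 11 with N297A and 5 without antibody, so the treatments overlap. The 50 richest cells held 76.5% of the Areg UMIs, against 44.6% for Hbegf and 22.5% for Nrg1.

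**Figure D4:**
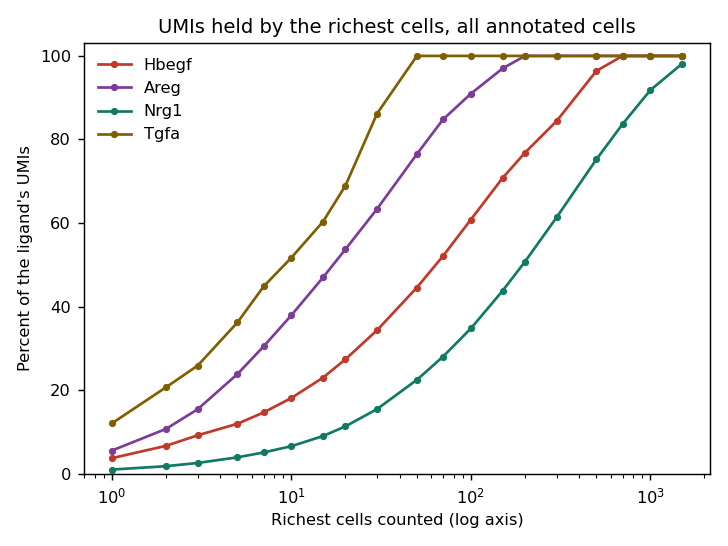
Percent of the UMIs of Hbegf, Areg, Nrg1 and Tgfa held by the cells richest in each, against the number of cells counted on a log axis, over 10476 annotated cells of 6 mice. The 50 richest cells hold all 58 Tgfa UMIs, 76.5% of Areg, 44.6% of Hbegf and 22.5% of Nrg1.

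Areg-rich monocytes, macrophages, mregDC, CD8 T cells and Tregs carried the markers of their annotated type. For the 10 macrophages these stood at 18017 against 21418 CPM, and for the 3 mregDC at 4473 against 4502 CPM. Those mregDC also had monocyte markers at 2705 against 454 CPM. The 17 monocytes had monocyte markers at a summed 5397 CPM, against 5559 CPM in the other monocytes. The markers of type 2 innate lymphoid cells, a known Areg source, stood at 10.4 against 8.79 CPM in them, and those of mast cells and basophils at 5.18 against 6.40 CPM. The 5 Tregs had Treg markers at 5796 against 3546 CPM in the other 19. In the 5 CD8 T cells the CD8 markers were at 3741 against 3605 CPM, and the Treg markers at 3182 against 974 CPM. The own markers were lower in the other types: 316 against 670 CPM in the 3 cDC2, 1016 against 1446 CPM in the 2 CD4 T cells and 1582 against 7068 CPM in the 2 NK cells. Those NK cells had innate lymphoid markers at 316 against 88.9 CPM. The same markers stood at 1605 against 761 CPM in the CD4 T cells and at 332 against 234 CPM in the CD8 T cells. In the Tregs they were lower, at 305 against 491 CPM. The CD4 T cells also had Treg markers at 2300 against 1207 CPM. The median depth of the 2 NK cells was 18959 UMIs, against 8392 in the other NK cells, and the part of doublets was not tested.

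Tregs stood highest for Areg, at 565 CPM (470 to 674), but the type holds 24 cells. The N297A mouse had 61 UMIs in 4 of 8 cells (884 CPM) and the Untreated mouse 63 UMIs in 6 of 11 cells (532 CPM). The 4 mice given an antibody with enhanced Fc had 5 cells of this type in all, with no Areg UMI. Their cells also had no Foxp3 UMI, the gene that defines Tregs, against 478 CPM with N297A and 160 CPM without antibody, so Areg per Treg cannot be compared between treatments. The macrophage markers of the Treg cells were at 10170 CPM, 3943 with N297A and 16349 without antibody, and macrophages themselves held Areg at 1.74 CPM.

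In CD8 T cells Areg was 84.8 CPM in the N297A mouse, 5.78 and 45.1 CPM with GA-aFuc, 1.66 and 18.0 CPM with GITR/Syn GA-aFuc and 8.75 CPM without antibody. The N297A value rests on 49 UMIs in 5 cells, 35 of them in 1 cell. The value of 1.66 CPM lies below the free RNA of 3.52 CPM. GA-aFuc against N297A gave -1.99 ± 0.81 (SE), stated with no p because Areg values had been seen. Areg was the only member above the filter in CD8 T cells. There 0% of 8570 genes passed for GA-aFuc against Untreated, 0.0117% against N297A, 0% for GITR/Syn GA-aFuc against Untreated and 0% against GA-aFuc, with 210, 414, 332 and 311 at an unadjusted p under 0.05.

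Areg in monocytes was 20.4 and 1.93 CPM with GA-aFuc, 9.79 and 13.1 CPM with GITR/Syn GA-aFuc, 6.10 CPM with N297A and 4.12 CPM without antibody. The GA-aFuc mice thus held both the highest and the lowest value, the lowest being under the free RNA of 3.52 CPM. GA-aFuc against Untreated gave 1.35 ± 0.89 (SE), stated with no p. It turned to -1.11 without GA-aFuc replicate 2 and was 2.27 without GA-aFuc replicate 3, so each GA-aFuc mouse decides the value. In replicate 2, the 5 richest monocytes held 69 of the 79 UMIs. In mregDC the pooled 77.3 CPM rests on 4 cells, 1 of which, in GITR/Syn GA-aFuc replicate 3, held 29 of the 44 UMIs.

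In dendritic cells neither Hbegf nor Nrg1 was called. There 0.0117% of 8557 genes passed for GA-aFuc against Untreated, 0.0234% against N297A, 0% for GITR/Syn GA-aFuc against Untreated and 0.14% against GA-aFuc. The genes at an unadjusted p under 0.05 numbered 596, 596, 404 and 613.

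Tgfa was an NK cell transcript at low level. In NK cells it stood at 4.92 and 22.0 CPM with GA-aFuc, 4.63 and 7.32 CPM with GITR/Syn GA-aFuc, 2.44 CPM with N297A and 7.94 CPM without antibody. Each value rests on 3 to 12 UMIs, and all 6 lay above the free RNA of 0.135 CPM. GA-aFuc replicate 3 was the highest, from 5 of its 49 NK cells. By NK cluster the pooled level ran from 2.63 CPM in cluster 20 to 14.7 CPM (6.70 to 27.8) in cluster 26. Among CD8 T cells, 9 of the 11 UMIs were in cluster 23, 7 of them in 1 cell of the Untreated mouse. The estimate in NK cells was 0.52 ± 0.93 (SE) for GA-aFuc against Untreated and 2.20 ± 1.13 (SE) against N297A, with adjusted p = 0.999 and 0.995 by edgeR. Tgfa, Hbegf and Nrg1 were not called in NK cells, where 0.0536% of 9329 genes passed for GA-aFuc against Untreated, 0.0429% against N297A, 0.129% for GITR/Syn GA-aFuc against Untreated and 0% against GA-aFuc. The genes at an unadjusted p under 0.05 numbered 453, 440, 696 and 411.

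Hbegf and Nrg1 were also found in the same cells. At 3000 UMIs per cell, 51 of 113 monocytes with an Hbegf UMI (45.1%) also held an Nrg1 UMI, against 21.6% of monocytes without Hbegf. In macrophages these shares were 12.4% and 3.47%. The shares here and for Areg below pool the cells of all mice and clusters. Both genes were high in monocyte cluster 0, Hbegf at 62.6 CPM and Nrg1 at 543 CPM, against 19.1 and 211 CPM over all monocytes. GA-aFuc replicate 3 held 821 of the 1006 Hbegf UMIs of macrophages. Whether the excess holds within single clusters and mice was not tested. Across the 50 clusters with at least 50 cells, Hbegf and Nrg1 had a Pearson correlation of 0.45 on the log2(CPM + 1) scale, Nrg1 and Areg of 0.31, and Nrg1 and Tgfa of -0.46. Clusters share mice and libraries, so these values carry no test. For Areg the shares in monocytes lay closer together: 24.1% of the 29 with an Areg UMI held Nrg1, against 22.5% of the others. Of the same 29 monocytes 0 held Hbegf, against 3.74% of the others. In macrophages 3 of the 14 with an Areg UMI (21.4%) held Hbegf, against 2.08% of the others.

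The genes most like each ligand over these clusters, among 9778 genes with a pooled level of at least 5 CPM, differed between the ligands. For Hbegf they were Card19, Srgn (the granule proteoglycan serglycin), F13a1 (coagulation factor XIII), Slc2a1 (the glucose transporter GLUT1) and Arg2 (arginase 2), with r from 0.78 to 0.80. For Nrg1 they were Tnfaip2, St3gal1, Mefv (pyrin), Gda and Cers6, with r from 0.83 to 0.87. For Tgfa they were the NK receptor genes Klra7 and Klrb1c, then Clnk, Fbxw7 and Eomes, a transcription factor of NK cells, with r from 0.87 to 0.94. For Areg, Lsp1, S100a4, Actg1, S100a11 and S100a6 reached r of only 0.62 to 0.66. Ereg, with 3 UMIs, gave r of at most 0.39.

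Of the 6 other ligands of the family, Nrg2 and Nrg4 passed the filter in monocytes and macrophages. Nrg2 had 2029 UMIs and in macrophages stood at 24.0 and 13.2 CPM with GA-aFuc, 30.6 and 10.4 CPM with GITR/Syn GA-aFuc, 5.49 CPM with N297A and 23.1 CPM without antibody, scaled by the fit. As for Nrg1, the N297A mouse was the lowest. Its value lies below the Nrg2 level of the free RNA, 8.53 CPM, and is not read as expression. GA-aFuc against N297A gave 1.77 ± 0.64 (SE) with an adjusted p = 0.970 by edgeR. Nrg4, like Hbegf in macrophages, was high in 1 mouse. It had 175 UMIs (16.5 CPM) in macrophages of GA-aFuc replicate 3 and 0.269 to 0.703 CPM in the other 5 mice, and in monocytes 10.3 CPM against 0.258 to 1.27 CPM. The free RNA held Nrg4 at 2.03 CPM, above the values of the other 5 mice. GITR/Syn GA-aFuc against GA-aFuc gave -4.20 ± 1.36 (SE) for it in macrophages, with an adjusted p = 1 by edgeR. Egf had 111 UMIs, Nrg3 19, Epgn 3 and Btc 2 in all annotated cells.

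The receptors were nearly absent from the annotated leukocytes. Egfr had 32 UMIs (0.242 CPM), Erbb2 28 (0.212 CPM), Erbb3 221 (1.67 CPM) and Erbb4 15 (0.113 CPM) in 10476 cells. The free RNA held them at 2.17, 2.44, 4.47 and 0.135 CPM, so none of the 4 stood above it over all annotated cells. By type, pDC stood above the free RNA for Egfr at 26.1 CPM, from 6 UMIs, and for Erbb3 at 21.8 CPM, from 5 UMIs. Of the receptors only Erbb3 passed the filter, in macrophages, where GA-aFuc against N297A gave 0.91 ± 0.49 (SE) with an adjusted p = 0.970 by edgeR.

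No gene that releases the ligands passed the test. Of the 13 sheddases and partners, 11 were tested in macrophages and 10 in monocytes, and 0 were called in any of the 4 comparisons, where at most 0.00697% of all genes in macrophages and at most 0.579% in monocytes were called. A count of 0 is thus near the share over all genes. In monocytes their median estimate for GA-aFuc against Untreated was 0.18 against 0.01 over all genes, with 7 of 10 positive and 3 at an unadjusted p under 0.05, against 783 of 11920 genes. Adam8, a protease of activated myeloid cells, stood at 173 and 315 CPM for GA-aFuc monocytes, 90.1 and 148 CPM with GITR/Syn GA-aFuc, 95.4 CPM with N297A and 83.5 CPM without antibody, scaled by the fit. Both GA-aFuc mice were above the other 4, and the estimate against Untreated was 1.55 ± 0.37 (SE) with an adjusted p = 0.201 by edgeR. Cd9, a tetraspanin that binds the Hbegf precursor, gave 0.80 ± 0.29 (SE) and Rhbdf2, which carries Adam17 to the surface, 0.60 ± 0.22 (SE) in the same comparison, with adjusted p = 0.597 and 0.617. Adam19 in macrophages gave -1.15 ± 0.41 (SE) for GA-aFuc against N297A, with an adjusted p = 0.970.

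Of the 15 adaptors and feedback genes, which carry or dampen receptor signals, 14 were tested in macrophages and 13 in monocytes. With the same shares over all genes, 0 were called, with median estimates for GA-aFuc against Untreated of 0.32 and 0.18. The smallest p was that of Gab1, a docking protein, in macrophages, where GA-aFuc against N297A gave 1.35 ± 0.26 (SE) with an adjusted p = 0.594 by edgeR. Cblb and Errfi1, both inhibitors of receptor signalling, gave 0.90 ± 0.21 (SE) and 0.85 ± 0.25 (SE) in monocytes against N297A, with adjusted p = 0.114 and 0.230. Spry1 gave -2.01 ± 0.61 (SE) in macrophages, with an adjusted p = 0.970.

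All 16 immediate-early genes, which growth factors and tissue handling both induce, were tested in monocytes and macrophages, and 0 were called beside the same shares over all genes. Egr2 in monocytes was 66.9 and 81.7 CPM with GA-aFuc, 54.4 and 33.0 CPM with GITR/Syn GA-aFuc, 37.9 CPM with N297A and 26.9 CPM without antibody, scaled by the fit. Its estimate for GA-aFuc against Untreated was 1.47 ± 0.30 (SE), with an adjusted p = 0.108 by edgeR. Dusp5 and Egr1 gave 0.72 ± 0.20 (SE) and 0.83 ± 0.26 (SE) against N297A, with adjusted p = 0.209 and 0.281, and Dusp2 gave 0.66 ± 0.19 (SE) for GITR/Syn GA-aFuc against GA-aFuc, with an adjusted p = 0.540. The summed immediate-early level, which moves with the handling of cells, was 4224 CPM in macrophages of GA-aFuc replicate 3 and 3372 to 3755 CPM in the other mice. In monocytes it ran from 4996 to 6082 CPM, with GA-aFuc replicate 3 at 5997 CPM.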

How the data were processed

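The deposited counts are whole-number UMI counts per feature and barcode written by Cell Ranger 9.0.0 (per the file headers) against GRCh38 and GRCm39 (per the submitters' processing notes). Cell types, clusters and treatments are the authors' deposited annotation. The clustering steps and treatment of doublets are not given in the sources used, and doublets were not called here. Mice are unnamed in the annotation; 12 rising runs of barcodes were taken as mice, and for 10476 of 10476 cells of this library the top hashtag matched the run. Of the annotated barcodes, 34 occur in both libraries.

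Members and gene lists were chosen with earlier results of these data known. Counts were summed per mouse and class (macrophages, monocytes, 4 dendritic types together, CD8 T cells, NK cells), and the 6 mice were fitted together per class with edgeR 4.0.16 (filterByExpr with a minimum count of 10, TMM, glmQLFit, glmQLFTest), on 2 residual degrees of freedom. The single N297A and Untreated mice are assumed to vary like the others. Adjusted p-values are Benjamini-Hochberg over all genes of a class and comparison, with a threshold of 0.05. SE is the fold change divided by the root of F. CPM "scaled by the fit" uses TMM; all others use mapped UMIs. Cells were thinned to 3000 UMIs for shares. Named genes are the 5 members, every other ligand and receptor, and up to 4 per list with the smallest p in monocytes or macrophages. The 5 genes with the highest correlation to each member are also named, but those of Ereg, with 3 UMIs, are left unnamed. Arg1, S100a8, Xist, Foxp3, Chil3, Fn1, Ly6c2, Plac8, Ccr2 and Vcan were added after values were seen. Nardilysin is listed as Nrd1. Mice are separate animals, and p-values rest on at most 2 per treatment. The minimum of 5 UMIs for a rich cell was chosen after seeing the data. Tested on simulated counts for GA-aFuc against Untreated, the fit recovered 34 of 48 genes changed 4 fold in monocytes and 31 of 50 in dendritic cells. Of genes changed 2 fold it recovered 13 of 48 and 14 of 50. False calls numbered 5 in the fit of 11605 monocyte genes and 6 in that of 8178 dendritic genes. Counts were drawn with the trended spread over genes, so genes held by few cells, such as Hbegf and Areg, are not covered. Macrophages were not simulated. Alternatives were DESeq2 1.42.0, RLE factors, 2 other filters, mouse features only, fewer cells or clusters, each mouse left out and a replicate block.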

Additional observations from a re-analysis of the deposited data

Results flagged for a closer look

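Barcodes with at least 500 UMIs but no author annotation, 5815 in number, were used in no comparison. They held 85 Ereg UMIs in 69 barcodes, above the limit of 3 counts that a count of 0 allows and against 3 UMIs in the annotated cells. The 553 of these barcodes with at least 3 fibroblast markers held 46 of the 85, or 54.1%. Their median depth was 58722 UMIs, above the 31460 UMIs of the deepest annotated cell. They held Ereg at 1.41 CPM, against 0.779 CPM over all 5815 barcodes. Over all 5815 barcodes Egfr had 1073 UMIs (9.83 CPM) against 32 in the annotated cells, and Erbb2 had 484 UMIs (4.43 CPM) against 28. No group was large enough for a test of single mice that lie far from the rest.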

How the results depend on the processing

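The counts of called pairs of class and member include Hbegf in monocytes and Areg, whose values had been seen, and are given only to show their dependence on the settings. Of 8557 to 14340 genes tested per class, 3 were members in macrophages, monocytes and dendritic cells each, 1 in CD8 T cells and 4 in NK cells. All calls lay in monocytes, where 0.176%, 0.579%, 0.109% and 0% of 11920 genes passed in the 4 comparisons named next. The number was 1 for GA-aFuc against Untreated, 2 for GA-aFuc against N297A, 1 for GITR/Syn GA-aFuc against GA-aFuc and 0 for GITR/Syn GA-aFuc against Untreated. With no filter on low counts it was 5, 6, 3 and 1, and leaving out 1 mouse at a time gave 1 to 5, 2 to 5, 0 to 4 and 0 to 2. For the first and the last, 44 and 8 genes passed over the 5 classes without the cells of the highest 1% of UMIs. Of 8552 dendritic genes 23 and 2 passed there. The number of pairs was then 2 and 1. It was 0 for GITR/Syn GA-aFuc against GA-aFuc with the stricter filter, and 0 there and 1 for the last without the 5 cells per mouse richest in Hbegf, an alternative chosen after seeing the data. Of monocyte genes 0.0955% of 9424 passed for GITR/Syn GA-aFuc against GA-aFuc with the stricter filter, and 0.0753% of 11950 without those cells. For the last, 2 of 8366 dendritic and 40 of 9100 NK genes passed without those cells. DESeq2 gave 1, 3, 1 and 0. The cause was not tested.

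Over all genes and the 5 classes the calls numbered 27, 76, 26 and 12; they were 622, 806, 598 and 189 with no filter, 44, 110, 40 and 6 by DESeq2, and ran from 21 to 833, 65 to 725, 27 to 831 and 12 to 145 when a mouse was left out. Nrg1 in dendritic cells passed for GA-aFuc against Untreated and N297A in each fit that left out 1 of the 4 mice with enhanced Fc. Leaving out 1 mouse, Nrg1 in monocytes ran from -0.12 to 1.08 for GITR/Syn GA-aFuc against Untreated, lowest without GITR/Syn GA-aFuc replicate 2, and from -0.94 to 0.27 against GA-aFuc, highest without GITR/Syn GA-aFuc replicate 3. In dendritic cells it ran from -0.48 to 0.046 for GITR/Syn GA-aFuc against GA-aFuc, highest without GA-aFuc replicate 3. Areg in monocytes ran from -1.11 to 2.27 for GA-aFuc against Untreated, lowest without GA-aFuc replicate 2. Shares of monocytes at full depth were 32.3% for Nrg1 against 21.9% thinned, and 7.50% for Hbegf against 3.63%. With 2 mice at most per treatment and few UMIs of Areg, Tgfa and Ereg, small differences were not detectable at this depth. In a fit with the replicate number as a block, chosen after seeing the data, the pairs called were 5, 5, 2 and 4, in the order given first, and the genes called over all classes 649, 622, 416 and 157. This block separates the 2 mice with high Xist from the other 4 and leaves 1 residual degree of freedom. Nrg1 in dendritic cells then passed for GA-aFuc against Untreated (3.69, adjusted p = 0.0119 by edgeR), against N297A (3.23, 0.0261) and for GITR/Syn GA-aFuc against Untreated (3.46, 0.0460), and Nrg1 in macrophages for GA-aFuc against N297A (1.73). Nrg1 in monocytes was called for GA-aFuc against N297A with the block too (2.25). The labels do not pair the mice, and mice of the same number deviated together little, with correlations across genes, without Xist, from -0.04 in NK cells to 0.12 in macrophages.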
